A study of Mus musculus with 12 samples.

Results

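10 of the 49315 genes counted in these libraries make or cross-link elastic fibres and are described here: Eln, Fbn1, Fbn2, Fbln1, Fbln2, Fbln5, Efemp1, Efemp2, Lox and Loxl1. They were chosen by name, all 10 were found in the deposited count tables, and all 10 passed the filter on low counts. RNA was sequenced from primary mouse adult fibroblasts (MAFs) that had been isolated from the ears of adult female mice, either wild-type C57BL/6 animals (WT) or animals with both copies of Bmal1 inactivated (Bmal1-/-, KO). The clock factor BMAL1 is missing from every tissue of such a knockout, also while the ear developed. WT control and KO control cells were sham irradiated, and WT senescent and KO senescent cells received 20 Gy of X-rays and were then cultured until they were senescent, a lasting arrest of the cell cycle with an altered secretory program. Before collection, all 4 groups were given 100 nM dexamethasone for 2 h to set their circadian clocks to the same phase, and RNA was taken 12 h later. Each group held 3 libraries. No source states whether the 3 came from separate animals or cultures, so the p-values measure only the spread between these libraries, which may be technical.

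Elastic fibres give skin, arteries and the elastic cartilage of the ear their recoil. The core is elastin, secreted as the soluble monomer tropoelastin and deposited on a scaffold of microfibrils that are built from fibrillins. Short fibulins carry tropoelastin and the lysyl oxidases to the microfibrils, and the lysyl oxidases then join lysine residues of neighbouring chains into insoluble cross-links. Adult tissue makes little new elastin, and a fibre once laid down is replaced slowly.

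The sequences just before the starts of Fbln1 and Fbln5 are printed because, of the 10 genes, these fibulins had the smallest adjusted p-values for a difference in response between the genotypes. Fbln1 encodes a long fibulin and Fbln5 a short one. BMAL1 binds the E-box CACGTG with its partner, and the study was about BMAL1 and AP-1, whose site is TGACTCA or, on the other strand, TGAGTCA. RefSeq promoter windows of 250 bases before and 50 after each start (GRCm38.p6) were at hand for 6 of the 10 genes, Fbn1, Fbln1, Fbln2, Fbln5, Efemp1 and Efemp2, in 10 windows. The 250 bases before a start of each gene read as follows, 5′ to 3′ on the strand of the gene, with the E-box in capitals.
Fbln1, chr15:85205699-85205948, plus strand: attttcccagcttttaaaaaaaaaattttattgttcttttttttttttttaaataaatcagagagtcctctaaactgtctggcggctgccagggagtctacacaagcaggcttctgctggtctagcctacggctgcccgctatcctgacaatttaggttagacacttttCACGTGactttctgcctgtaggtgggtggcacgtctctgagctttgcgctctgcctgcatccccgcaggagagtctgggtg
Fbln5, chr12:101819120-101819369, minus strand: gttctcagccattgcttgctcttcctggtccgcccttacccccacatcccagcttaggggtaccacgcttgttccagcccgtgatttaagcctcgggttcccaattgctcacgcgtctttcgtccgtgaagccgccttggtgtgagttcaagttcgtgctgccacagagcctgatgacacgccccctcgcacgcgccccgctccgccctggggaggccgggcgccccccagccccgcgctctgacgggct
The E-box of Fbln1 begins 81 bases before this start, and the same site lies 140 bases before another RefSeq start of Fbln1. It was in 2 of the 10 windows, both of Fbln1, while 7.15% of 32851 promoter windows of the table held an E-box. The AP-1 letters were in 0 of the 10 windows and in 5.20% of the 32851. A match is a description of letters, and its absence holds for these windows only.

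Eln (ENSMUSG00000029675, chr5:134702593-134747323, minus strand) encodes tropoelastin. Fbn1 (ENSMUSG00000027204, chr2:125300594-125507993, minus strand) and Fbn2 (ENSMUSG00000024598, chr18:58008623-58210487, minus strand) encode the fibrillins. Fbln5 (ENSMUSG00000021186, chr12:101746565-101819055, minus strand) and Efemp2, also named fibulin-4 (ENSMUSG00000024909, chr19:5473954-5482517, plus strand), encode the fibulins that fibre assembly needs in mice. Efemp1, or fibulin-3 (ENSMUSG00000020467, chr11:28853204-28926743, plus strand), encodes another short fibulin, and Fbln1 (ENSMUSG00000006369, chr15:85205949-85286535, plus strand) and Fbln2 (ENSMUSG00000064080, chr6:91212455-91272540, plus strand) encode the long fibulins. Lox (ENSMUSG00000024529, chr18:52516067-52529867, minus strand) and Loxl1 (ENSMUSG00000032334, chr9:58287738-58313186, minus strand) encode lysyl oxidases. Coordinates are those of GENCODE M21 on GRCm38, where all 10 genes are protein coding, and the counts are of reads in their exons. In 5 of them some exon sequence is shared with a gene on the opposite strand: 20.1% of the exon bases of Fbn1 with Gm9913, 4.57% of Efemp2 with Mus81, 3.30% of Eln with Gm30003, 0.976% of Fbn2 with Gm26507 and 0.628% of Lox with AC161119.1. Whether counting used strand is not given in the sources used here, so reads in these stretches cannot be assigned with certainty. AC161119.1 was not among the genes counted. The most reads any of the other overlapping genes was given in a library was 815, for Mus81. That count does not show how many reads the 10 genes lost or gained in the shared stretches.

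Total counts per library ranged from 23923030 to 31736083, and 3 counts, taken as the detection floor, were worth 0.0945 to 0.125 CPM, a gene's count per 1000000 counts. Levels below are CPM after TMM scaling (trimmed mean of M-values), given as mean ± SD of 3 libraries. The lowest count of any of the 10 genes in a library was 354, for Fbln1, so none was near the floor. Arntl, the gene of BMAL1, reached 31.5 ± 1.71 CPM in the control cells of WT and 13.2 ± 1.83 CPM in those of KO mice, and 36.1 ± 1.10 and 26.6 ± 1.13 CPM in their senescent cells. It was lower in KO cells by a log2 difference of -1.26 (adjusted p = 2e-09) and -0.44 (adjusted p = 0.000329). Which part of the gene is deleted was not used here, and reads can come from the part a deletion leaves, so this measures transcript and not protein. Of the 9 fibroblast markers, all were at 1 CPM or more in the group means. The summed level of 13 chondrocyte markers, which include the cartilage collagen Col2a1, was 9650 to 12063 CPM in WT control, 2949 to 3407 in WT senescent, 6517 to 9220 in KO control and 975 to 1186 in KO senescent libraries. The cells labelled fibroblasts thus held cartilage transcripts, and their sum differed between control and senescent and between WT and KO libraries. In control cells Col2a1 was the largest part of the sum, at 4954 CPM in WT and 3031 CPM in KO, while Acan was at 2045 and 2077 CPM. Of 12 markers tested, 3 were lower and 0 higher in KO control cells at an adjusted p under 0.05 (edgeR). Smooth muscle and myofibroblast markers summed to 1553 to 2493 CPM over the 12 libraries. Keratinocyte, endothelial, macrophage, adipocyte and melanocyte lists summed to at most 23.1 CPM in any library.

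Per length, Lox was the highest and Fbln1 the lowest of the 10 in WT control cells. Levels of different genes were compared as CPM per kb of exon. In WT control cells the order was Lox (2485 ± 115), Fbln2 (632), Eln (367), Efemp2 (156), Fbn1 (129), Loxl1 (93.1), Fbln5 (69.0), Fbn2 (44.6), Efemp1 (37.6) and Fbln1 (3.87), with no overlap between neighbours. Elastin thus ranked 3 in WT control cells. In WT senescent cells Eln ranked 8 at 47.3 CPM per kb, below Lox (1395), Fbln2 (648), Efemp2 (129), Fbln5 (117), Efemp1 (81.3), Loxl1 (77.0) and Fbn1 (56.8), and of these neighbours only the libraries of Efemp1 and Loxl1 overlapped. KO control cells kept the leading places of Lox (2442), Fbln2 (751) and Eln (289), and Fbn1 (172) and Efemp2 (163) overlapped there. In KO senescent cells Eln ranked 8 again, at 31.5 CPM per kb. There Fbln5 (80.8), Fbn1 (78.4) and Loxl1 (74.8) could not be ordered, and Fbn2 (7.58) overlapped with Fbln1 (4.82). Dividing by the longest transcript in place of all exons raised Eln to 772 CPM per kb in WT control cells, still rank 3. There its libraries overlapped with those of Fbln2 at the next higher rank, and those of Loxl1 and Fbln5 overlapped too. On this length Eln had rank 5 at 99.4 in WT senescent cells. It had rank 7 at 66.3 in KO senescent cells, where it overlapped with Loxl1.

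**Figure D1:**
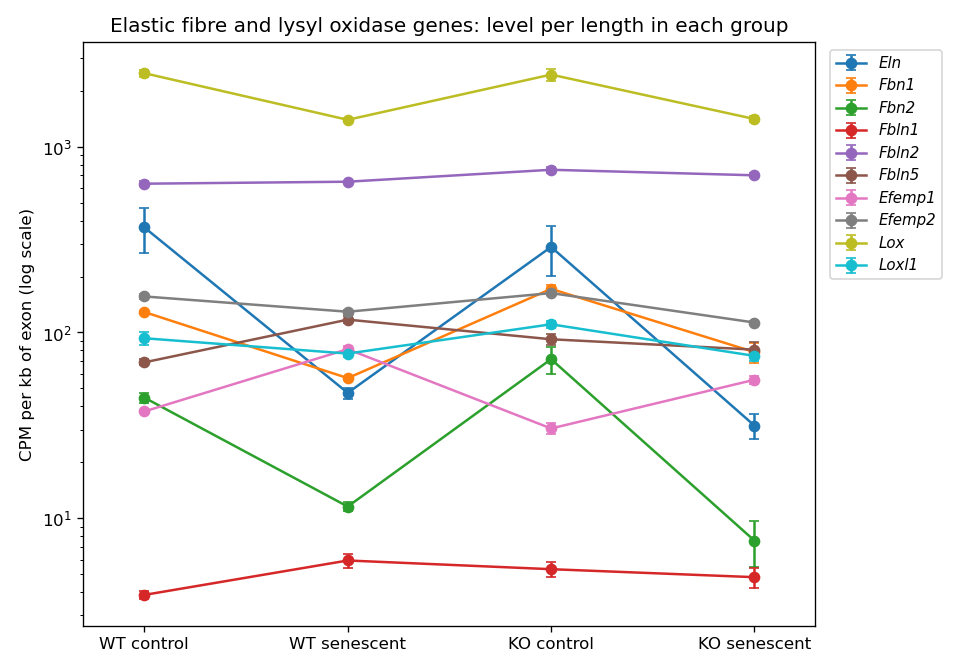
Level of each gene per length in the 4 groups (CPM per kb of exon, log axis; points are means of 3 libraries, bars are SD, and lines only join the points of a gene). Lox was highest in every group, and Eln went from 367 CPM per kb in WT control to 47.3 in WT senescent cells.

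The first comparison asked how the genes differed between irradiated senescent and control cells in each genotype. In WT cells elastin, both fibrillins, Efemp2 and both lysyl oxidases fell, while Efemp1, Fbln5 and Fbln1 rose. In KO cells the same 6 genes fell, Efemp1 rose, and Fbln5 fell slightly. A gene was said to have passed where its adjusted p was under 0.05, from edgeR's quasi-likelihood test with Benjamini-Hochberg adjustment over all 17416 genes tested. In WT cells 3 of the 10 rose and 6 fell, beside 29.2% and 27.0% of all genes, and 4 passed with a log2 fold change over 1 in size (17.4% of all genes). In KO cells 1 rose and 7 fell, beside 28.5% and 28.6% of all genes, and 3 also passed the fold threshold (18.8%). The median log2 fold change of the 10 genes was -0.27 in WT and -0.55 in KO cells, against 0.02 and -0.00275 over all genes. The libraries of senescent and control cells did not overlap for 9 of the 10 genes in WT and 8 in KO cells, as for 63.2% and 61.6% of all genes. The 10 genes together took 22497 ± 1308 CPM in control cells of WT mice and 13761 ± 268 CPM in their senescent cells, and Lox was the largest part of each sum. In KO cells the sums were 23524 ± 1706 and 13872 ± 370 CPM.

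**Figure D2:**
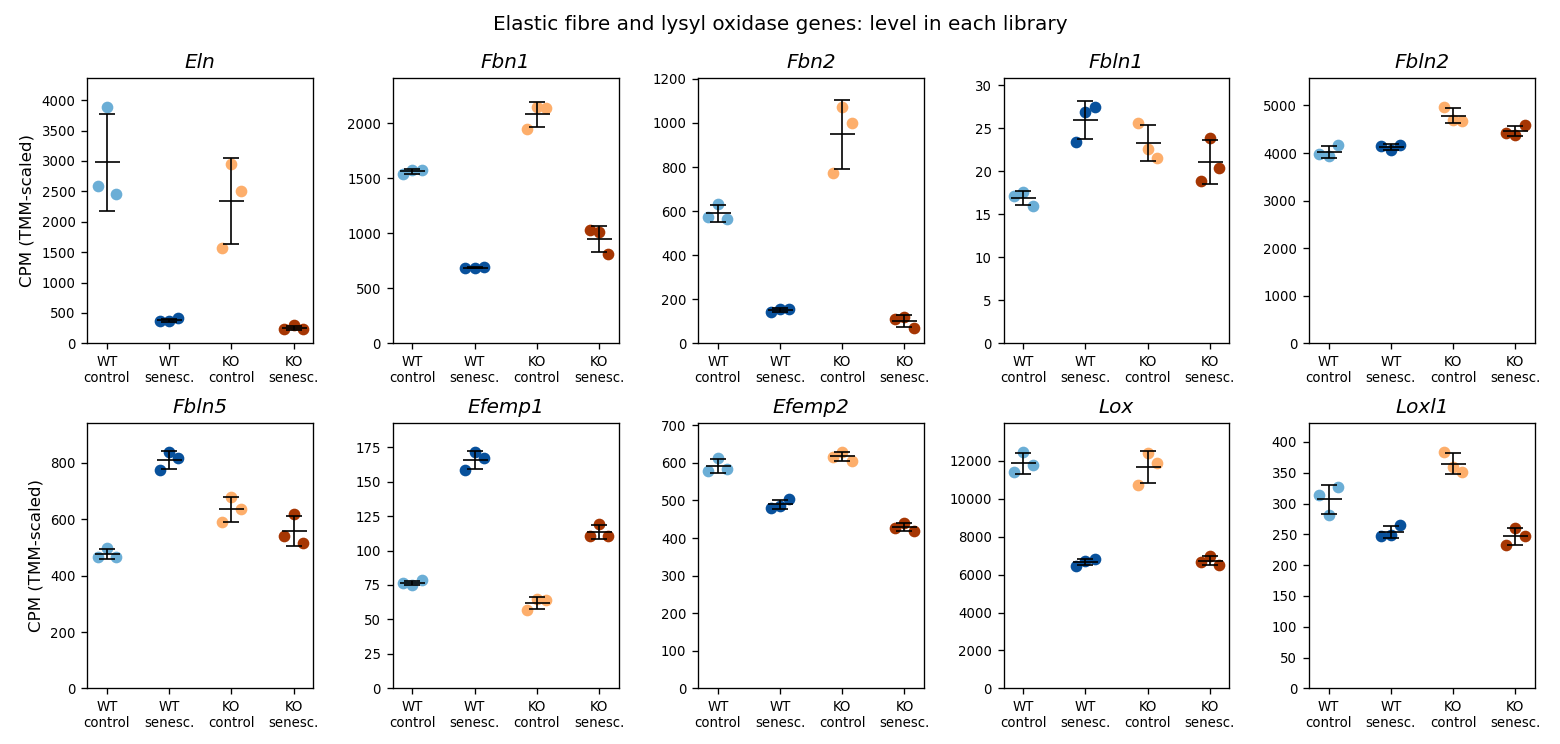
Level of each gene in each of the 12 libraries (CPM on TMM-scaled totals, linear axes from 0). Points are libraries, wide marks are group means and bars are SD. Eln, Fbn1, Fbn2 and Lox were lower in all senescent than in all control libraries, and Efemp1 was higher.

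Eln showed the largest fall of the 10 in WT cells. It was at 2583, 3889.8 and 2454 CPM in the WT control libraries and at 368, 368 and 413 CPM in the WT senescent ones. The KO libraries held 1562, 2944 and 2506 CPM in control and 231, 300.05 and 235 CPM in senescent cells. The control libraries varied widely, yet each was above every senescent library. Elastin fell by 2.96 on the log2 scale in WT cells (SE 0.28, adjusted p = 1.85e-05), to 12.9% of control, and by 3.19 in KO cells (SE 0.28, adjusted p = 1.16e-05), to 10.9%. The difference between these 2 changes was -0.24 and did not pass (SE 0.36, 95% confidence interval -1.07 to 0.60, adjusted p = 0.71). Without WT control replicate 2, the highest library, it was -0.48, and without KO control replicate 2 it was -0.04. In bulk RNA, fewer cells that make elastin and less elastin RNA per cell cannot be told apart.

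Chondrocytes of the ear make elastin too, and the chondrocyte markers moved with Eln. In control cells of each genotype, replicate 2 had the highest Eln and the highest chondrocyte sum, 12063 CPM in WT and 9220 CPM in KO. The lowest Eln went with the lowest sum, 9650 CPM in WT replicate 3 and 6517 CPM in KO replicate 1. Fibroblast markers also had their highest sum in replicate 2 of both control groups, and their lowest in replicate 1 of both. Among senescent libraries, WT replicate 3 and KO replicate 2 were highest in both Eln and the chondrocyte sum. In KO senescent cells Eln was lowest in replicate 1 (231 CPM) and the chondrocyte sum in replicate 3 (975 CPM). Of 12 chondrocyte markers tested, 11 fell in senescent WT cells, where Comp, also a tendon and fibroblast gene, rose, and 11 fell in senescent KO cells. The median log2 fold change of that list was -2.03 in WT and -3.29 in KO cells. Matn1, a marker of mature cartilage, was listed at 0 in all 3 WT control libraries. The 9 fibroblast markers summed to 20020 to 20830 CPM in WT control and 9844 to 10252 CPM in WT senescent libraries. In KO cells the fibroblast sums were 24978 to 26343 and 11734 to 12151 CPM. Of these 9 genes, 5 rose and 4 fell in senescent WT cells, with a median log2 fold change of 0.27, and 3 rose and 5 fell in KO cells, with a median of -0.18. The collagens Col1a1 (-2.06), Col1a2 (-1.30) and Col3a1 (-1.11) were among those that fell in WT cells, and Pdgfrb (1.23) and Thy1 (0.89) among those that rose. The part of either cell type in the fall of elastin was not tested.

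**Figure D3:**
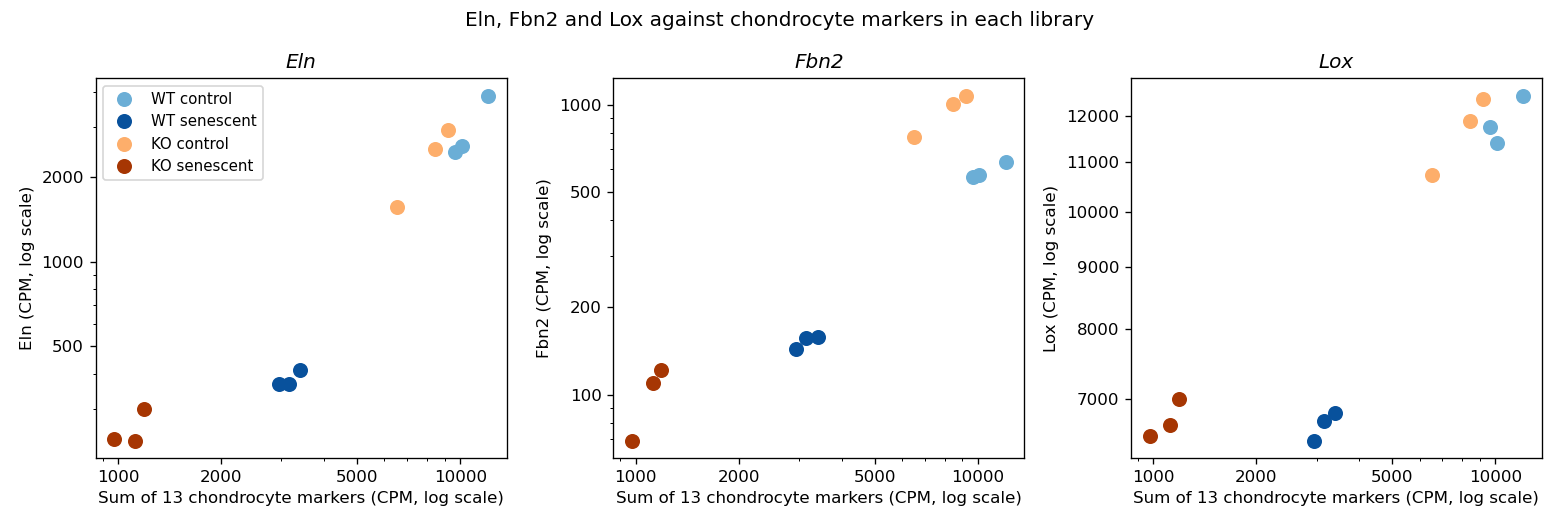
Level of Eln, Fbn2 and Lox in each library against the summed level of 13 chondrocyte markers (both in CPM on log axes, 1 point per library, coloured by group). Senescent libraries lie at the lower left in each panel; for Fbn2, KO control libraries lie above WT control libraries although their chondrocyte sum is lower.

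Both fibrillins fell in senescent cells of both genotypes, Fbn1 by about the same amount and Fbn2 much more in KO cells. Fbn1, the main fibrillin of adult microfibrils, measured 1539, 1573 and 1575 CPM in WT control and 686, 689 and 692 CPM in WT senescent libraries. KO libraries measured 1952, 2150.3 and 2141 CPM in control and 1028, 1009 and 817 CPM in senescent libraries. No senescent library reached a control library. The log2 fold change of Fbn1 was -1.18 in WT (SE 0.07, adjusted p = 9.45e-12) and -1.13 in KO cells (SE 0.07, adjusted p = 1.59e-11), which left 44.1% and 45.7% of the control level. The difference of 0.05 did not pass (95% confidence interval -0.14 to 0.25, adjusted p = 0.751), and it was 0.15 without KO senescent replicate 3 and -0.0025 without KO senescent replicate 1.

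Fbn2, the fibrillin that predominates in development, measured 572, 632 and 564 CPM in WT control and 144, 157 and 158 CPM in WT senescent libraries. The levels in KO cells were 773, 1073.5 and 1001 CPM in control and 109, 122 and 69.2 CPM in senescent libraries. KO control libraries were thus above all WT control libraries, and KO senescent libraries below all WT senescent ones. Fbn2 fell by 1.95 on the log2 scale in WT cells (SE 0.20, adjusted p = 3.58e-05), which left 25.9%, and by 3.25 in KO cells (SE 0.21, adjusted p = 1.34e-06), which left 10.5%. The interaction, which is the KO change less the WT change, was -1.30 (SE 0.28, adjusted p = 0.0124), and it was the only one of the 10 past the fold threshold. It was -1.09 without KO senescent replicate 3, the lowest library. The chondrocyte list moved the same way, with 11 of 12 markers lower in the interaction and a median of -1.42, and its part in the result was not tested. Fbn2 made up 25.7 ± 1.11% of fibrillin transcripts per length in WT control, 16.9 ± 0.688% in WT senescent, 29.4 ± 2.45% in KO control and 8.70 ± 1.39% in KO senescent cells.

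The fibulins did not move as 1 group. Fbln5, which binds elastin and tethers it to cells, measured 466, 498 and 468 CPM in WT control and 775, 839 and 817 CPM in WT senescent libraries. The corresponding KO libraries held 591, 678 and 637 CPM in control and 540.5, 619 and 517 CPM in senescent libraries. The WT groups were well apart, and the KO groups overlapped. Fbln5 rose 1.70-fold in WT cells (log2 0.76, SE 0.06, adjusted p = 1.86e-09) and fell by 0.19 on the log2 scale in KO cells (SE 0.06, adjusted p = 0.0171). The fall in KO cells lost its call when KO control replicate 2 was left out (-0.14, adjusted p = 0.0959), when either replicate 1 (-0.15, 0.0876) or 3 (-0.13, 0.0875) of the KO senescent cells was, with library totals unscaled (-0.03, 0.682), and in a fit of the KO libraries alone (-0.17, 0.0637). The interaction of -0.95 passed (SE 0.09, adjusted p = 1.05e-06) and kept its call under every alternative run. The ratio of Fbln5 to Eln per length went from 0.195 ± 0.0394 to 2.49 ± 0.18 in WT and from 0.337 ± 0.0934 to 2.58 ± 0.161 in KO cells.

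Efemp2 brings lysyl oxidase to tropoelastin. It measured 578, 613 and 585 CPM in WT control and 481, 486 and 503 CPM in WT senescent libraries, and in KO cells 617, 629 and 605 against 426, 439.8 and 419 CPM. Senescent libraries were below control libraries in both genotypes, by a small margin. It fell by 0.27 on the log2 scale in WT (SE 0.05, adjusted p = 3.51e-05; -0.10 with unscaled totals) and by 0.53 in KO cells (SE 0.05, adjusted p = 3.6e-09). The interaction was -0.25 (SE 0.07, adjusted p = 0.00879).

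Efemp1 was the only one of the 10 to rise in senescent cells of both genotypes. It measured 76.3, 75.2 and 78.3 CPM in WT control and 159, 172 and 167 CPM in WT senescent libraries. KO libraries measured 57.2, 64.6 and 64.2 CPM in control and 110.3, 119 and 110.3 CPM in senescent libraries. None of these groups overlapped. Efemp1 rose 2.16-fold in WT (log2 1.11, SE 0.06, adjusted p = 6.11e-13) and 1.83-fold in KO cells (log2 0.87, SE 0.06, adjusted p = 3.24e-11). The interaction of -0.24 (SE 0.08, adjusted p = 0.0353) was lost with DESeq2 (0.0581), with the size factors of DESeq2 (0.063), and in 8 of the 12 fits that left out a library (up to 0.108). These were the fits without replicates 1 and 2 of WT control, 2 and 3 of WT senescent, 2 and 3 of KO control and 1 and 3 of KO senescent cells, each left out alone.

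Of the long fibulins, which sit in basement membranes and around elastic fibres, Fbln1 was low and Fbln2 abundant. Fbln1 measured 17.1, 17.6 and 16.0 CPM in WT control and 23.4, 26.8 and 27.5 CPM in WT senescent libraries, and in KO cells 25.6, 22.6 and 21.6 against 18.9, 23.9 and 20.4 CPM. The WT groups did not overlap and the KO groups did. Fbln1 rose 1.53-fold in WT cells (log2 0.61, adjusted p = 1.17e-05), while its log2 fold change in KO cells was -0.14 (adjusted p = 0.206; 0.01 with unscaled totals), with a 95% confidence interval of -0.34 to 0.05. Without KO senescent replicate 2 that value was -0.24 and passed (adjusted p = 0.0412). The interaction was -0.76 (SE 0.13, adjusted p = 0.000474).

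Fbln2 stayed between 3931 and 4971 CPM in all 12 libraries, a narrow range beside that of elastin. It measured 3986, 3931 and 4159.7 CPM in WT control and 4147, 4059 and 4173 CPM in WT senescent libraries, which overlapped. The KO libraries were at 4971, 4698 and 4681 CPM in control and at 4429, 4384 and 4587 CPM in senescent cells. Its log2 fold change was 0.04 in WT (95% confidence interval -0.06 to 0.13, adjusted p = 0.523) and -0.10 in KO cells (-0.19 to -0.01, adjusted p = 0.0654; 0.05 with unscaled totals). Unscaled totals gave 0.21 in WT cells, which passed (adjusted p = 0.000236), and the KO change passed without WT control replicate 3 (-0.10, 0.0415) or KO senescent replicate 3 (-0.12, 0.0388). The interaction of -0.13 did not pass (adjusted p = 0.145).

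Lox fell by nearly the same amount in both genotypes, and Loxl1 fell more in KO cells. Lox, which cross-links collagen as well as elastin, measured 11390.2, 12474 and 11759 CPM in WT control and 6465, 6714 and 6814 CPM in WT senescent libraries. The levels in KO cells were 10732, 12396.5 and 11882 CPM in control and 6662, 6999.5 and 6529 CPM in senescent libraries. WT and KO libraries of the same state covered overlapping ranges. Lox fell to 56.1% of control in WT (log2 -0.83, SE 0.05, adjusted p = 2.76e-11) and to 57.7% in KO cells (log2 -0.79, SE 0.05, adjusted p = 5.39e-11). The difference was 0.04, with a 95% confidence interval of -0.12 to 0.20 (adjusted p = 0.765; -0.02 without KO control replicate 1).

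Loxl1, the lysyl oxidase that is targeted to elastic fibres through Fbln5, measured 313, 281 and 327 CPM in WT control and 247, 249 and 265 CPM in WT senescent libraries. The KO libraries stood at 384, 359 and 352 CPM in control and 232, 259.7 and 248 CPM in senescent libraries. Each senescent library was below each control library of its genotype. It fell by 0.27 in WT (SE 0.06, adjusted p = 0.00054) and, as a log2 fold change, by 0.56 in KO cells (SE 0.06, adjusted p = 6.1e-08). With unscaled totals the WT change was -0.10 and did not pass (adjusted p = 0.117). The interaction of -0.29 (SE 0.08, adjusted p = 0.018) lost its call without WT senescent replicate 3 (-0.26, adjusted p = 0.0626) or KO senescent replicate 1 (-0.24, 0.0503). The ratio of Lox to Loxl1 per length was 26.9 ± 3.28 in WT control, 18.1 ± 0.431 in WT senescent, 22.1 ± 2.49 in KO control and 18.9 ± 0.846 in KO senescent cells.

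Over the 10 genes, 6 interactions passed, all of them lower, and 0 were higher. Among all genes 11.7% passed lower and 9.24% higher, and 3.66% passed with a log2 value over 1 in size, as Fbn2 did. The median interaction of the 10 was -0.25 against -0.03 over all genes. The WT and KO changes rest on separate libraries, and each enters the interaction, so the 3 values of a gene are not independent results.

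**Figure D4:**
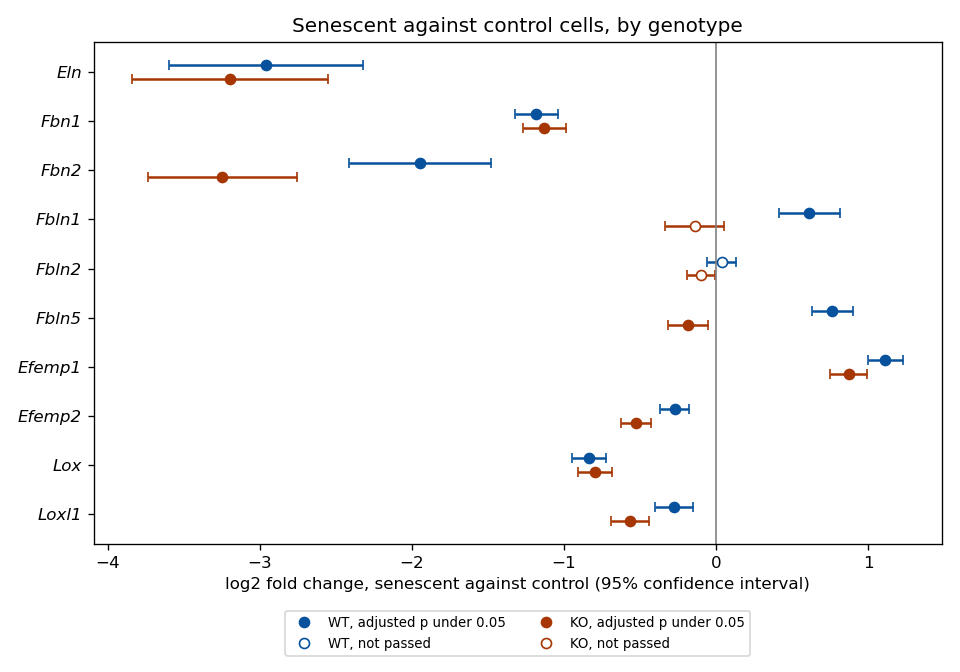
Log2 fold change of senescent against control cells for each gene in WT (blue) and KO (brown) cells, with 95% confidence intervals from edgeR's quasi-likelihood fit; filled points passed at an adjusted p under 0.05. The WT and KO points are farthest apart for Fbn2, Fbln5 and Fbln1, and nearly coincide for Fbn1 and Lox.

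The next comparison asked what differed between KO and WT cells of the same state. Each genotype was deposited as a table of its own, so a difference in handling and a difference of genotype cannot be told apart here, and these comparisons share their libraries with the ones above. In control cells Fbn1, Fbln1, Fbln2, Fbln5 and Loxl1 were higher in KO and Efemp1 was lower. In senescent cells Fbn1 was higher in KO, and Fbln1, Fbln5, Efemp1 and Efemp2 were lower. The counts were 5 higher and 1 lower in control cells, beside 8.07% and 4.96% of all genes. They were 1 higher and 4 lower in senescent cells, beside 11.9% and 11.8%. None of the 10 had a difference over 1 on the log2 scale, a size that 2.54% of all genes passed in control and 3.48% in senescent cells. The libraries did not overlap for 7 of the 10 genes in control and 7 in senescent cells, against 25.9% and 42.0% of all genes.

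Fbn1 was higher in KO cells in both states, by 0.41 in control (adjusted p = 0.000232) and 0.47 in senescent cells (adjusted p = 3.7e-05) on the log2 scale. Efemp1 was lower in both states, by a log2 difference of -0.30 in control (adjusted p = 0.00101) and -0.55 in senescent cells (adjusted p = 4.56e-07). For Fbln5 and Fbln1 the sign turned with the state. Fbln5 was 0.41 higher in KO control (adjusted p = 0.000126) and differed by -0.54 in senescent cells (adjusted p = 3.43e-06). Fbln1 was 0.46 higher in KO control cells (adjusted p = 0.00253) and differed by -0.30 in senescent cells (adjusted p = 0.0235). In senescent cells the Fbln1 libraries overlapped, and the call was lost without WT senescent replicate 2 (-0.27, adjusted p = 0.0954) or 3 (-0.25, 0.112) and without KO senescent replicate 1 (-0.22, 0.119) or 3 (-0.27, 0.0804). Both genes kept the same direction of each difference under all alternatives run.

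Fbn2 had the same turn in its values without passing in either state. The log2 difference was 0.69 in control cells (SE 0.20, 95% confidence interval 0.24 to 1.14, adjusted p = 0.0544) and -0.61 in senescent cells (SE 0.20, adjusted p = 0.0608), with no overlap of libraries in either. DESeq2, the tool the study used, passed both (adjusted p = 0.00501 and 0.012), and so did the fit without KO senescent replicate 2 (0.0419 and 0.033). The control difference also passed in a fit of the 2 groups alone (0.0196), without KO senescent replicate 3 (0.69, 0.00263) and without KO control replicate 1 (0.82, 0.0351). Without KO control replicate 2 it was 0.59, farther from passing (adjusted p = 0.172). The senescent difference passed with unscaled totals (-0.65, 0.0472) and was -0.40 without KO senescent replicate 3.

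Elastin did not pass between the genotypes in either state. Its log2 difference was -0.35 in control cells (95% confidence interval -0.94 to 0.24, adjusted p = 0.452), where libraries overlapped, and it was -0.11 without WT control replicate 2 and -0.55 without KO control replicate 2. In senescent cells all KO libraries were below all WT libraries, and the difference was -0.58 (SE 0.26, 95% confidence interval -1.18 to 0.01, adjusted p = 0.152). A fit of the senescent libraries alone, which takes its spread from them only, gave -0.58 with an adjusted p of 0.00875. Both intervals, which are from the fit over all 12 libraries, included 0. Over the chondrocyte list, 3 of 12 markers were lower in KO control and 12 of 12 in KO senescent cells, with a median of -1.62 in the latter, and their part in the elastin values was not tested.

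The remaining genes differed little. Fbln2 was 0.25 higher in KO control cells (adjusted p = 0.000609), and its senescent difference of 0.11 did not pass (adjusted p = 0.0696), though it did with DESeq2 (0.14, 0.00434), with the size factors of DESeq2 (0.0279), in a fit of 2 groups (0.0368) and without KO control replicate 1 (0.047). Loxl1 was 0.25 higher in KO control cells (adjusted p = 0.00736) and differed by -0.04 in senescent cells (95% confidence interval -0.17 to 0.08, adjusted p = 0.668). Efemp2 differed by 0.06 in control cells (-0.04 to 0.16, adjusted p = 0.449) and was lower in KO senescent cells by a log2 difference of -0.19 (adjusted p = 0.00406). Lox differed by -0.03 in control (95% confidence interval -0.14 to 0.09, adjusted p = 0.824) and by 0.01 in senescent cells (-0.10 to 0.13, adjusted p = 0.881; -0.02 with unscaled totals), so a change of Lox between genotypes beyond 0.14 on the log2 scale lay outside these intervals.

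**Figure D5:**
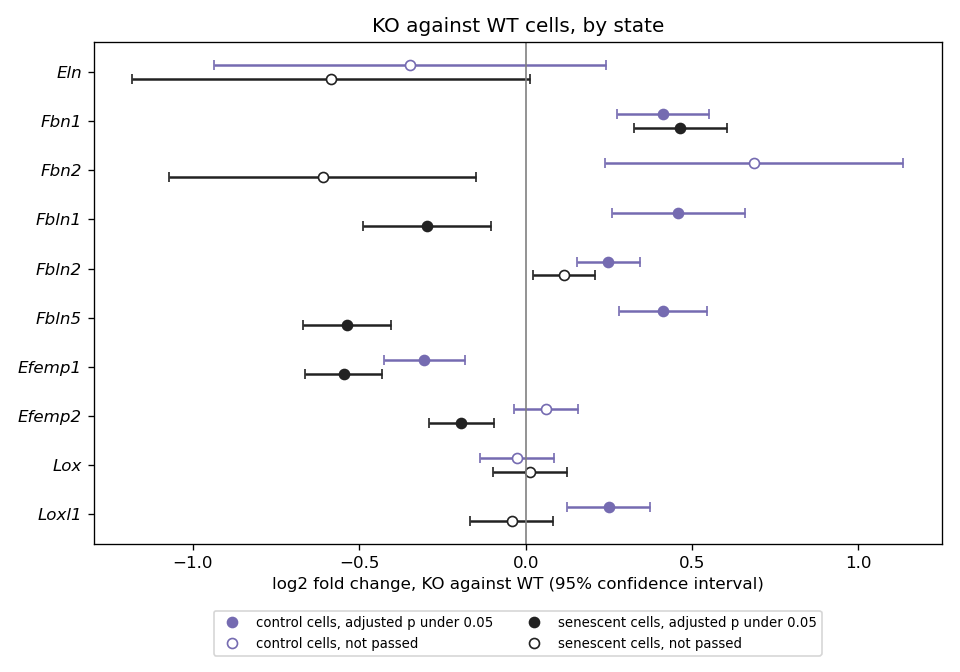
Log2 difference of KO against WT cells for each gene in control (purple) and senescent (black) cells, with 95% confidence intervals from edgeR's quasi-likelihood fit; filled points passed at an adjusted p under 0.05. Fbln1 and Fbln5 lie on opposite sides of 0 in the 2 states, while Fbn1 lies at 0.41 and 0.47.

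Genes that work with these 10 were taken from lists of the pathway. Of 17 microfibril and elastin-binding partners, 9 rose and 3 fell in senescent WT cells, and 7 rose and 9 fell in senescent KO cells, with a median log2 fold change of 0.41 and -0.23. Dcn, a small proteoglycan of collagen fibrils, rose by 3.37 in WT cells (28.9 ± 1.69 to 299 ± 12.4 CPM, SE 0.09, adjusted p = 1.15e-15) and by 3.44 in KO cells. Mfap4, a microfibril-associated protein that binds elastin, rose by 2.93 in WT cells, where control libraries averaged 0.377 CPM and senescent ones 2.91 CPM. Its rise in KO cells was 1.37, with averages of 2.34 and 6.04 CPM. Both were higher in the senescent cells, where elastin was lower. Hmcn1, a hemicentin related to the fibulins, also rose in both, by 2.29 and 1.61, from under 1 CPM. Fkbp10, a collagen and tropoelastin chaperone, fell by 1.14 in WT cells, and its fall in KO cells had a log2 value of -0.93. Emilin1, which links elastin to fibrillin, fell by 1.30 in KO cells, and its log2 value in WT cells was -0.74 (adjusted p = 4.2e-07). Mfap2 rose by 0.51 in WT cells (adjusted p = 0.00722) and fell by 1.17 in KO cells. Mfap2, a core microfibril glycoprotein, had an interaction of -1.69 (SE 0.22, adjusted p = 2.5e-05), with WT levels of 5.14 and 7.37 CPM against 10.9 and 4.83 CPM in KO cells. Over the list, 1 interaction was higher and 8 lower. KO control cells were higher in 9 and lower in 0 of the 17, with Emilin2 at 33.2 against 14.7 CPM and Mfap4 at 2.34 against 0.377 CPM. In senescent cells 7 were higher in KO and 5 lower, among them Mfap5, another microfibril-associated glycoprotein, at 34.8 against 17.0 CPM (log2 1.03). Dcn is also among the fibroblast markers.

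Of 11 cross-linking genes tested out of 12 listed, 2 rose and 6 fell in senescent WT cells, and 1 rose and 8 fell in KO cells, with a median of -0.75 and -0.46. Loxl2, a lysyl oxidase of basement membranes, averaged 264 ± 12.0 CPM in WT control and fell to 78.7 ± 3.85 CPM (log2 -1.75, SE 0.05, adjusted p = 3.35e-16). KO control cells held 301 ± 7.83 CPM of Loxl2 and KO senescent cells 186 ± 0.597 CPM. Its interaction was 1.05 (SE 0.07, adjusted p = 2.65e-08), opposite in sign to that of Loxl1. KO senescent cells held more Loxl2 than WT senescent cells, by 1.24 (adjusted p = 1.42e-12). Loxl4 fell in both, by 1.64 in WT cells, and in KO cells to 101 CPM, with KO control cells at 286 CPM. Postn, whose product periostin supports the activation of LOX, fell in WT from 620.1 CPM to 259 CPM, and in KO cells from 2140.2 CPM to 421 CPM. Its interaction was -1.08 (adjusted p = 0.00262), and it was 1.79 higher in KO control cells (adjusted p = 1.18e-05). Over the list, 4 interactions were higher and 4 lower, and KO against WT gave 4 higher and 1 lower in control and 4 higher and 2 lower in senescent cells.

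Among 10 genes of fibrillin processing, 4 rose and 3 fell in senescent WT cells, and 3 rose and 3 fell in KO cells, with a median of 0.12 and 0.08. Pcsk5, a proprotein convertase, rose by 2.81 in WT and 1.35 in KO cells, with an interaction of -1.46 (adjusted p = 0.0111). Adamtsl5, a microfibril-binding ADAMTS-like protein, rose by 1.36 and 1.45. Of the convertases, Pcsk6 was at 101 CPM in KO senescent and 239.98 CPM in WT senescent cells (log2 -1.25, adjusted p = 1.86e-07), and over the list 3 were higher and 1 lower in KO control and 3 higher and 2 lower in KO senescent cells. Of 10 elastin-degrading enzymes and inhibitors tested out of 13 listed, 5 rose and 3 fell in WT cells, and 6 rose and 3 fell in KO cells, with a median of 0.50 and 0.43. These counts pool proteases with their inhibitors. In WT cells the inhibitors Timp2 (1176 to 2122 CPM), Timp3 (2008 to 3992) and Cst3 (125 to 213) rose, and Timp1 (1112 to 871) fell. The protease Mmp2 (249 to 433 CPM) also rose there, and the proteases Mmp14 (430 to 325) and Ctsk (75.7 to 58.5) fell. Ctsl, a lysosomal cysteine protease, rose by 1.16 in WT cells, to 419.9 CPM from 188, and by 1.04 in KO cells, to 589.7 CPM from 287. Mmp9, a gelatinase that can cut elastin, rose in KO cells from 1.34 to 4.42 CPM (log2 1.71, adjusted p = 3.16e-06), and its interaction was 1.48 (adjusted p = 0.0044). Between genotypes 4 of these genes were higher and 0 lower in KO control, and 5 higher and 1 lower in KO senescent cells. The dedicated elastases Elane and Mmp12 did not pass the filter on low counts. The elastin receptor genes Neu1 and Ctsa rose in both genotypes, and Glb1 passed in WT (0.18, adjusted p = 0.0335) but not in KO cells (-0.04, adjusted p = 0.636), where the difference of the changes did not pass either (-0.23, adjusted p = 0.121).

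Of 16 regulators of elastin and LOX transcription, 8 rose and 3 fell in senescent WT cells, and 6 rose and 4 fell in KO cells, with a median of 0.16 and 0.31. Fgf2, a growth factor, rose by 2.03 in WT cells (144 ± 6.74 to 591 ± 12.1 CPM, adjusted p = 1.78e-17). In KO cells it rose by 2.44 (125 to 678 CPM). The part of any of these regulators in the levels of elastin or Lox was not tested. Fosl1, the AP-1 subunit FRA1, rose in KO cells by 1.24 (adjusted p = 3.37e-07), and its interaction was 1.11 (adjusted p = 0.000294). Over this list 5 interactions were higher and 1 lower, beside 9.24% and 11.7% of all genes. KO against WT gave 2 higher and 3 lower in control and 7 higher and 1 lower in senescent cells. All these lists were chosen by name, and their counts stand beside the background of each comparison given above.

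Outside the 10 genes, the 3 genes whose pattern over the 12 libraries was most like that of elastin were not matrix genes. Likeness was the root mean square difference of log2 CPM, each gene centred on its own mean. It was taken over the 10946 genes averaging 5 CPM or more. That number includes the 10 genes themselves, which were left out of the search. For Eln these were Gas2l3 (0.32), Mcm5 (0.32), a subunit of the replicative helicase, and Brip1 (0.34), a DNA repair helicase. For Lox they were Zcchc3 (0.06), Ppib (0.06), the collagen-folding cyclophilin B, and Magt1 (0.07). Among the 10 themselves, Efemp2 and Loxl1 were the most alike (0.11), followed by Fbln1 and Fbln5 (0.14). All points share the same 12 libraries and their scaling, and no test was made of these values.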

How the data were processed

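RNA from 12 libraries in 4 groups was sequenced as poly(A) paired reads. Per the submitters' processing notes and the study's methods, the authors made the deposited counts with bcl2fastq 2.17, Trimmomatic 0.36, STAR 2.5.2b on GRCm38 and featureCounts, taking uniquely placed reads in exons. Whole-number counts per gene were deposited as 1 table per genotype. Reads that map to several places were dropped, which lowers genes with close copies, and the reads carried no molecular identifiers, so precision and floors cover counting error only. Depth was 23923030 to 31736083 counts per library.

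Groups came from the sample titles. Gene names, exon lengths and coordinates came from GENCODE M21, which matched 49056 of 49315 identifiers. Counts were filtered with filterByExpr (minimum count 10), scaled with TMM and fitted in R 4.3.3 with edgeR 4.0.16 (limma 3.58.1), 1 mean per group over all 12 libraries, robust quasi-likelihood F-tests and Benjamini-Hochberg adjustment over 17416 genes. The standard error was the log2 fold change divided by the square root of F. Where the text gives a second threshold it is a log2 fold change over 1 in size, as in the study's methods. The fit was tested on simulated data. Promoters were read from a RefSeq table.

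The 10 genes, the pathway and marker lists and the tests were chosen with earlier results of these data known. From each pathway list, up to 3 genes per comparison and direction were named, those with the largest change among genes past both thresholds that averaged 1 CPM or more. The genes of the elastin receptor, Elane and Mmp12, and Mmp2, Mmp14, Ctsk, Timp1, Timp2, Timp3 and Cst3 were named after their values were seen. Alternatives were the DESeq2 1.42.0 Wald test, its size factors, no filter, only the groups compared, the replicate number as a block, each library left out, and, chosen after seeing the data, library totals without TMM scaling.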

Additional observations from a re-analysis of the deposited data

Results flagged for a closer look

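Of the 10 genes, 6 were flagged because senescence changed them differently in KO and WT cells by the interaction test of edgeR, adjusted over all genes tested. The interaction was -1.30 for Fbn2 (adjusted p = 0.0124), -0.95 for Fbln5 (adjusted p = 1.05e-06) and -0.76 for Fbln1 (adjusted p = 0.000474). Loxl1 had -0.29 (adjusted p = 0.018), Efemp2 had -0.25 (adjusted p = 0.00879) and Efemp1 had -0.24 (adjusted p = 0.0353). In every flagged gene the KO change was lower than the WT change. For Fbln5 and Fbln1 the WT libraries rose and the KO libraries overlapped, for Fbn2 both genotypes fell, and for Efemp1 both rose.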

How the results depend on the processing

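Of the 10 genes, 9 passed for senescence in WT, 8 for senescence in KO, 6 for the interaction, 6 for KO against WT in control and 5 in senescent cells. With a log2 fold change over 1 also required, these counts became 4, 3, 1, 0 and 0. Leaving out each library in turn gave 9 to 9, 7 to 9, 4 to 6, 6 to 7 and 4 to 6. Over the 10 genes and 5 comparisons, 50 of 50 calls were the same with no filter on low counts and 50 of 50 with the replicate block, 48 with the size factors of DESeq2, 46 with DESeq2, 36 of 40 with only the 2 groups compared, and 568 of 600 with a library left out. Same-numbered libraries did not deviate together (r from -0.13 to 0.11 over 12 pairs), so no pairing by number was seen. Such correlations cannot show whether same-numbered libraries share an animal or culture. The replicate block left the counts at 9, 8, 6, 6 and 5. Unscaled library totals moved the median of all genes by 0.17 for senescence in WT and 0.15 in KO cells, and 43 of 50 calls were the same. There Fbln1 (0.011) and Fbln2 (0.055) turned in senescent KO cells and Lox (-0.022) turned for KO against WT in senescent cells; none of these values passed. With a library left out, values whose sign turned ranged from -0.0025 to 0.15 for the interaction of Fbn1 and from -0.020 to 0.083 for that of Lox. Between genotypes Lox ranged from -0.069 to 0.034 in control and from -0.015 to 0.036 in senescent cells, and Loxl1 from -0.080 to 0.0020 in senescent cells, and none of these passed. For each lost or gained call the cause was not tested beyond the library or setting named.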

Other observations

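Other ratios between the 10 genes, per length of exon, were not used above. Elastin stood at 0.147 ± 0.0325 of Lox in WT control, 0.0339 ± 0.00176 in WT senescent, 0.117 ± 0.0279 in KO control and 0.0223 ± 0.0026 in KO senescent cells. The ratio of Eln to Fbn1, the core of the fibre against its scaffold, was 2.85 ± 0.745 in WT control and 0.832 ± 0.0542 in WT senescent cells. In KO cells it was 1.67 ± 0.433 in control and 0.404 ± 0.059 in senescent cells. The ratio of Fbln5 to Efemp2, the pair of fibulins that fibre assembly needs, was 0.442 ± 0.00301 in WT control and 0.907 ± 0.0352 in WT senescent cells, and 0.564 ± 0.0341 and 0.714 ± 0.051 in KO cells. The 3 libraries of a group did not overlap with those of another for this last ratio. The senescence marker Cdkn1a, which encodes p21, was at 165 ± 12.9 CPM in WT control, 622 ± 19.5 in WT senescent, 221 ± 15.4 in KO control and 683 ± 38.7 in KO senescent cells. Lmnb1, which senescent cells lose, was at 107 ± 14.7, 11.6 ± 0.181, 107 ± 13.7 and 10.8 ± 0.612 CPM in the same order. Mki67, a marker of dividing cells, was at 593 ± 83.4, 45.6 ± 0.780, 580.1 ± 29.7 and 26.5 ± 8.82 CPM. Cdkn2a, which encodes p16, was at 3.45 ± 0.867, 3.19 ± 0.515, 3.93 ± 0.715 and 9.42 ± 2.78 CPM. Cdkn2a rose in senescent KO cells (log2 1.26, adjusted p = 5.05e-05) and did not pass in senescent WT cells (-0.11, adjusted p = 0.723). The interaction was 1.36 (adjusted p = 0.00473). By quantitative PCR the study reported a significant increase of p16 in irradiated WT cells, and a similar one in KO cells. That is another measure than reads counted over the whole gene, and the reason for the difference in WT cells was not tested.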
